A study of Mus musculus with 8 samples.

Results

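The Nr4a and Egr transcription factors induced by T cell activation were described in RNA seq data from ROR-γt−/− mouse T cells. The members were chosen by gene symbol (Nr4a1, Nr4a2, Nr4a3, Egr1, Egr2 and Egr3), with earlier results of these data known. A member with a mean below 10 normalized counts over the 8 samples would have been given as low only. All 6 were among the 22829 genes listed and none was below that mean. CD4+ T cells were purified from the spleen of ROR-γt−/− mice and received, by lentivirus, a V5-tagged form of either WT-ROR-γt (4 samples) or K187R-ROR-γt (4 samples), a mutant whose lysine for SUMO attachment is replaced by arginine. Both groups were differentiated under Th17-inducing conditions, so the ROR-γt deletion, the viral transduction and the culture are shared by the controls, and ROR-γt came from a vector and not from its own locus. Ages of the mice, and whether the samples of a group are separate mice or cultures, are not given in the sources used here, so p-values measure only the spread between these samples. Restimulation with PMA and ionomycin is described for cytokine secretion, and whether the cells taken for RNA were restimulated is not stated.

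Nr4a and Egr genes are immediate early genes of the T cell: their transcripts appear soon after the antigen receptor is engaged, without new protein synthesis. The Nr4a proteins Nur77 (Nr4a1), Nurr1 (Nr4a2) and Nor1 (Nr4a3) are orphan nuclear receptors that act without a known hormone ligand, and in T cells they are known for restraining effector responses and for their part in regulatory and exhausted cells. The Egr proteins are zinc finger factors that bind GC-rich DNA. Egr1 is the rapid target of the ERK pathway through serum response factor and its Elk partners, while Egr2 and Egr3 are targets of calcium and NFAT signals known for limiting T cell activation.

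Reads counted on genes ranged from 52456804 to 74676721 per sample. The values are normalized counts, that is, reads divided by 1 size factor per sample. Clustering of the samples on all tested genes except the members was cut into 3 sets, a number fixed for the cut. Each set held both groups. Set 1 had WT replicates 1 and 3 and K187R replicate 1. Set 2 had WT replicate 2 and K187R replicates 2 and 3, and set 3 had WT replicate 4 and K187R replicate 4. Xist, the RNA of the inactive X chromosome of female cells, was between 13564 and 17373 normalized counts in set 2. It was at most 23.7 in the other 5 samples. Set 2 holds 1 WT and 2 K187R samples, so the groups were not balanced on Xist. Both groups held samples with high and with very low Xist, so the samples of a group do not all come from the same mouse. All 6 T cell markers examined were detected, with summed levels of 120848 to 146403. Il17a, the signature cytokine gene of Th17 cells, was at 3069 ± 1106 normalized counts in WT and 5018 ± 1156 in K187R samples (SD, n = 4 each, log2 fold change 0.74, limma adjusted p = 0.921).

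The members lie on different chromosomes (GRCm38, GENCODE M21), with Egr1 given where it is described: Nr4a1 (ENSMUSG00000023034) at chr15:101254269-101274795 on the plus strand, Nr4a2 (ENSMUSG00000026826) at chr2:57106830-57124003 on the minus strand, Nr4a3 (ENSMUSG00000028341) at chr4:48045153-48086447 on the plus strand, Egr2 (ENSMUSG00000037868) at chr10:67535475-67542188 on the plus strand, and Egr3 (ENSMUSG00000033730) at chr14:70077203-70082614 on the plus strand. None of the 6 shared exon bases with another annotated gene.

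The promoters of the Nr4a genes share a feature that the choice of members did not use. RefSeq windows (GRCm38.p6) of 300 bases, 250 before and 50 after a transcription start, were given for 4 of the 6 members, Nr4a1, Nr4a2, Nr4a3 and Egr2. The letters TGACG, the core of the cyclic AMP response element bound by CREB and ATF factors, were searched on both strands with its reverse complement CGTCA. Each Nr4a window held 4 matches, a number reached by 76 of all 32851 windows (0.231%), while 20.8% held at least 1. The printed sequences leave out annotated exon bases, which keeps 3 of the 4 matches for Nr4a3, and Egr2 is shown for contrast by one of its 5 windows. Matches are in capitals, 5′ to 3′ on the strand of the gene, and the regions are chr15:101266596-101266845 (Nr4a1, plus), chr2:57124004-57124253 (Nr4a2, minus), chr4:48045055-48045152 (Nr4a3, plus) and chr10:67537619-67537868 (Egr2, plus).
Nr4a1: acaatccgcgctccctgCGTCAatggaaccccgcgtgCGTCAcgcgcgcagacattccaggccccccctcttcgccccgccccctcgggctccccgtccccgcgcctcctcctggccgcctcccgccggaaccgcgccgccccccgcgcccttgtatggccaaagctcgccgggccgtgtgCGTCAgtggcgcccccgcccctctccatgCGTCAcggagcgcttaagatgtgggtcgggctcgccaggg
Nr4a2: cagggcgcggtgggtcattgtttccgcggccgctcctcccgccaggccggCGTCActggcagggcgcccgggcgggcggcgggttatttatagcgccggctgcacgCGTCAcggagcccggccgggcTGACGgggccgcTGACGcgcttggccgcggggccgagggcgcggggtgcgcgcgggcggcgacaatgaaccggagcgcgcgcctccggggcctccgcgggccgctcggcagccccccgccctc
Nr4a3: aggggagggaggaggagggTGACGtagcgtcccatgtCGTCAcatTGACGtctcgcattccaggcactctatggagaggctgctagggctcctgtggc
Egr2: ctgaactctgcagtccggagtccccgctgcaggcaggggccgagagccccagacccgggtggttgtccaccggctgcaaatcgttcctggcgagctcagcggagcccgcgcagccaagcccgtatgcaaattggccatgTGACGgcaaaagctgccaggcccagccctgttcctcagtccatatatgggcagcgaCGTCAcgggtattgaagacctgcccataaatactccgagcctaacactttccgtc
The Egr2 window shown held 2 matches of TGACG, a number reached by 5.01% of all windows, and the other Egr2 windows held 0 or 2. The window shown also held 1 CArG box, the element bound by serum response factor, which 1.63% of all windows held and no Nr4a window held. The full palindrome TGACGTCA (1.79% of windows), the Nr4a monomer element AAAGGTCA (1.51%) and the Egr element GCGTGGGCG (0.612%) were not in the member windows, and the related Egr element GCGGGGGCG (2.91%) was in that of Nr4a1. A match describes letters and not binding.

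Compared per length, as RPKM with the exon length of each gene, Nr4a1 was the most abundant member and Nr4a2 the least. Nr4a1 was at 61.5 ± 17.1 RPKM (SD over 8 samples), rank 678 of 16958 genes, and Egr1 at 35.0 ± 5.15, rank 1427. Egr2 (28.7 ± 2.22), Egr3 (23.3 ± 3.48) and Nr4a3 (22.3 ± 6.01) followed, and Nr4a2 was at 9.88 ± 1.88, rank 5324. The per-length levels of neighbours in this order overlapped across samples down to Nr4a3. Within every sample, however, Nr4a1 was above Egr1 and Egr1 above Egr2. Egr3 and Nr4a3 differed by less than the SD of either. The highest Nr4a2 level (12.3 RPKM) was below the lowest of Nr4a3 (16.7 RPKM). Counting error was small beside these spreads: the fewest reads on a member in any sample were 1694, for Nr4a2, with a 95% Poisson interval from 4.71% below to 4.88% above that covers counting error only.

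K187R samples had lower mean values of the 3 Nr4a transcripts than WT samples, with differences of −26.6% for Nr4a1, −28.2% for Nr4a2 and −29.0% for Nr4a3. The means differed by −13.6% for Egr3, 0.654% for Egr1 and 3.78% for Egr2. No member passed the adjusted threshold of 0.05 in limma, which called 0% of the 16982 genes tested. An unadjusted p below 0.05 with a lower K187R value was found for 2 members (Nr4a2 and Nr4a3) and for 1.64% of genes tested. Complete separation, with every K187R sample below every WT sample, was found for 1 member (Nr4a2) and for 0.989% of genes. The log2 fold change was below 0 for 4 of 6 members and 51.6% of genes. Its median was −0.45 over the Nr4a genes, 0.025 over the Egr genes and −0.0062 over all genes tested. As the members were chosen with earlier results known, these shares describe the members and do not test them.

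**Figure D1:**
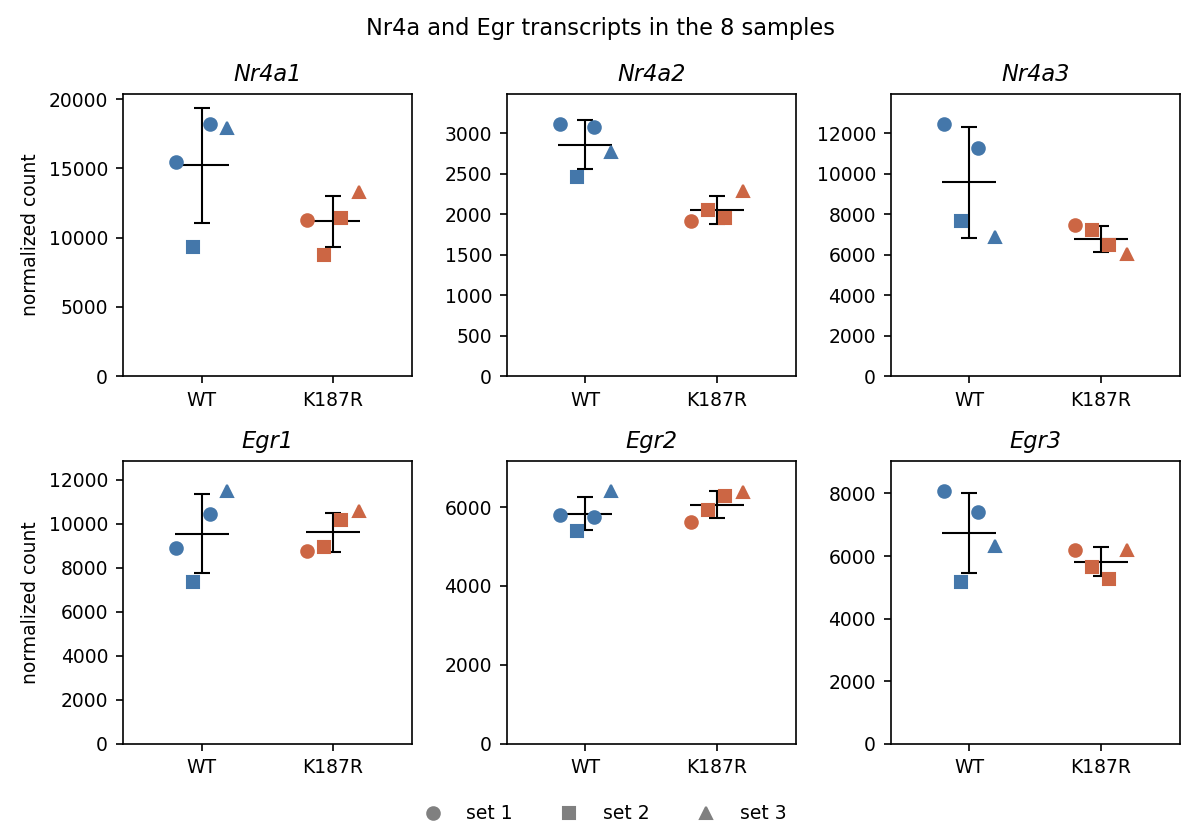
Normalized counts (linear axis from 0) of the 6 members in WT and K187R samples. Points are single samples, their shape gives the sample set, and bars show mean ± SD (n = 4 per group). The groups separate for Nr4a2, with WT from 2463 and K187R up to 2289 normalized counts, and overlap for the other members.

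Nr4a2, which encodes Nurr1, separated the groups. WT replicates 1 to 4 were at 3116, 2463, 3076 and 2768 normalized counts. K187R replicates 1 to 4 were at 1914, 2049, 1954 and 2289. All WT samples were above all K187R samples, and WT replicate 2 and K187R replicate 4 lay closest to the gap. The means were 2856 ± 304 and 2051.5 ± 168 normalized counts (SD, n = 4 each), and the log2 fold change on the log2(normalized count + 1) scale was −0.47 (SE 0.0982, 95% interval −0.69 to −0.25). The limma p was 0.000825 and the adjusted p 0.921, rank 15 of 16982 genes by p and rank 5 of the 8758 genes with a lower K187R value. An exact two-sided permutation test gave p = 0.0286, the smallest that 4 against 4 samples allow. DESeq2 on the recovered reads, an alternative to limma, called Nr4a2 (adjusted p = 0.0170). Nr4a2 was among 12 genes it called lower, 0.0859% of the 13970 genes to which it gave an adjusted p. The adjusted p for Nr4a2 ranged from 0.00331 to 1 over 26 alternatives, with the log2 fold change between −0.55 and −0.43.

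Nr4a3, which encodes Nor1, was high in WT replicates 1 and 3 and lower in the remaining samples. WT replicates 1 to 4 were at 12477, 7676, 11285 and 6865 normalized counts. K187R replicates 1 to 4 were at 7454, 7206, 6489.7 and 6034. The groups overlapped through WT replicate 4, which lay below K187R replicates 1 and 2. The means were 9576 ± 2726 and 6796 ± 652 normalized counts, with a log2 fold change of −0.45 (SE 0.184, 95% interval −0.87 to −0.041, limma p = 0.0346, adjusted p = 0.921, exact permutation p = 0.114).

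Nr4a1, which encodes Nur77 and is widely used as a reporter of antigen receptor signalling, was the most variable member. WT replicates 1 to 4 were at 15434, 9302, 18214 and 17919 normalized counts. K187R replicates 1 to 4 were at 11296, 8721, 11413 and 13259.7. WT replicate 2 lay below 3 of the 4 K187R samples, and the other WT samples lay above all of them. The means were 15217 ± 4136 and 11172 ± 1865 normalized counts, with a log2 fold change of −0.41 (SE 0.214, 95% interval −0.89 to 0.067, limma p = 0.0839, adjusted p = 0.921, exact permutation p = 0.171). With 1 sample left out, the log2 fold change was largest without WT replicate 2 (−0.63) and smallest without K187R replicate 2 (−0.30).

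Egr1 and Egr2 had overlapping groups with means close to each other. Egr1 (ENSMUSG00000038418) lies at chr18:34859823-34864984 on the plus strand. It was at 8920.2, 7363, 10443 and 11484 normalized counts in WT replicates 1 to 4. Egr1 was at 8764, 8955, 10168 and 10574 in K187R replicates 1 to 4. The WT range enclosed the K187R range for Egr1, with a log2 fold change of 0.025 (SE 0.135, 95% interval −0.28 to 0.33, limma adjusted p = 0.985), and its direction turned when WT replicate 2 was left out (−0.094). Egr2, which with Egr3 is known for limiting T cell activation, was at 5793, 5392, 5761 and 6400.4 normalized counts in WT replicates 1 to 4. It was at 5630.3, 5938, 6280.1 and 6378 in K187R replicates 1 to 4. The Egr2 samples lay close together, with a log2 fold change of 0.054 (SE 0.0752, 95% interval −0.11 to 0.22, limma adjusted p = 0.933).

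Egr3 was at 8071, 5175, 7401 and 6318 normalized counts in WT replicates 1 to 4. It was at 6187, 5651, 5251 and 6197 in K187R replicates 1 to 4. WT replicate 2 was the lowest of the 8 samples, and the other WT samples lay above all K187R samples. The log2 fold change of Egr3 was −0.19 (SE 0.133, 95% interval −0.49 to 0.10, limma p = 0.175, adjusted p = 0.921, exact permutation p = 0.257), and it was −0.32 without WT replicate 2 and −0.10 without WT replicate 1.

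**Figure D2:**
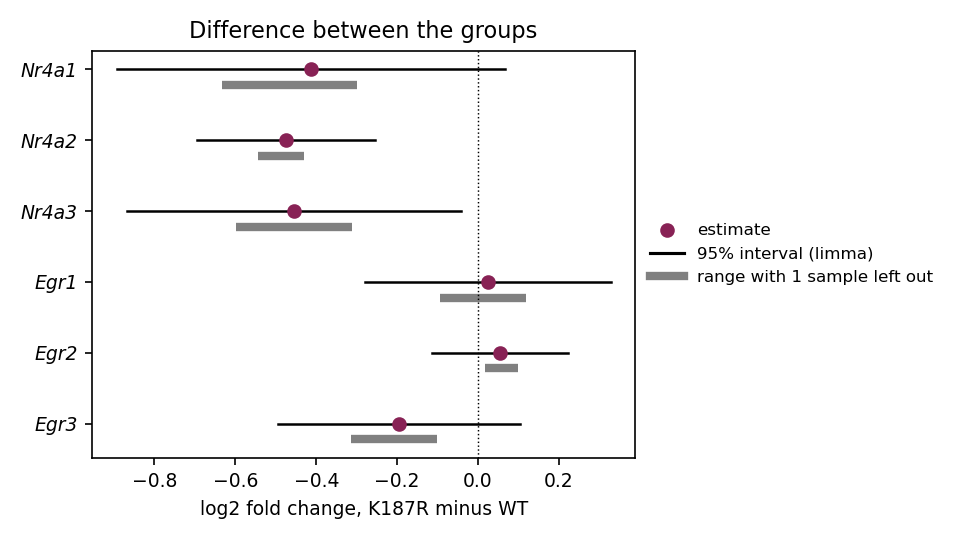
Log2 fold change of each member, K187R minus WT, with its limma 95% interval (thin line) and the range of the estimate with 1 sample left out at a time (grey bar). The intervals of Nr4a2 (−0.69 to −0.25) and Nr4a3 (−0.87 to −0.041) lie below 0 and the other 4 include 0.

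Within the 3 sample sets, Nr4a2 and Nr4a3 were lower in every K187R sample than in every WT sample of the same set. For Nr4a2 any grouping of the samples gives this order, because its groups separate completely. The log2 differences in sets 1, 2 and 3 were −0.69, −0.30 and −0.27 for Nr4a2 and −0.67, −0.17 and −0.19 for Nr4a3. Nr4a1 was lower in K187R samples in sets 1 and 3 (−0.57 and −0.43) and not in set 2 (0.10). Egr1, Egr2 and Egr3 were higher in K187R samples in set 2 (0.37, 0.18 and 0.074) and lower in set 1 (−0.14, −0.037 and −0.32) and set 3 (−0.12, −0.0050 and −0.028). Sets hold 2 or 3 samples, so these differences were not tested one by one. The share of all genes with such an order within sets was not computed.

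**Figure D3:**
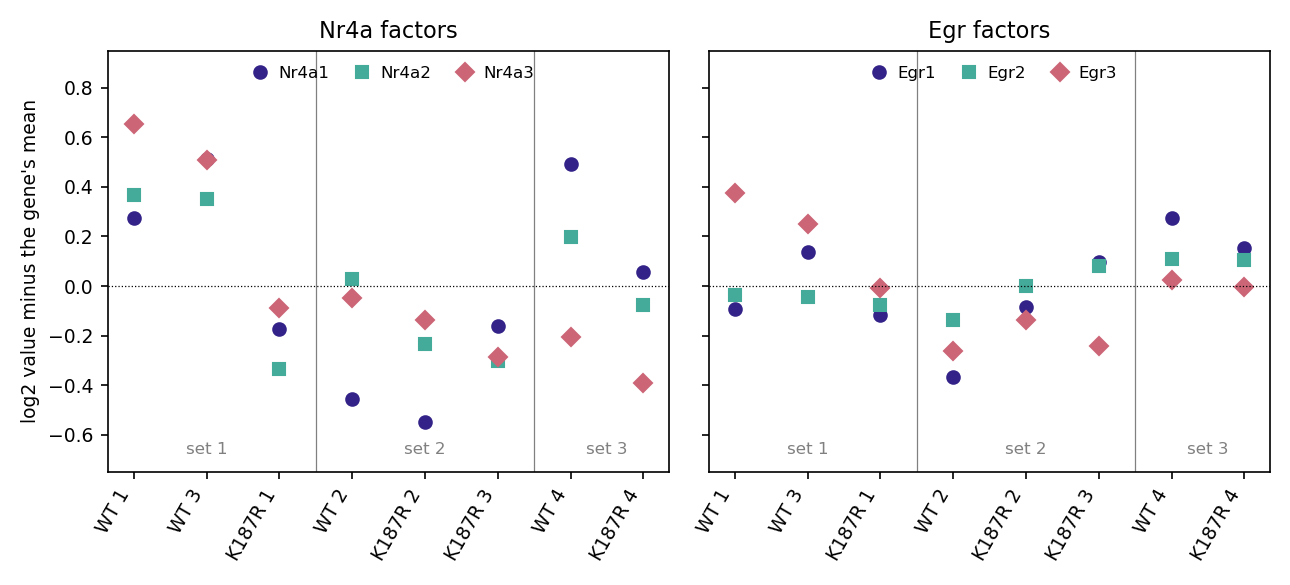
Log2 value of each member minus its mean over the 8 samples, ordered by sample set, with the Nr4a factors on the left and the Egr factors on the right. In set 1 the WT samples lie above the K187R sample for every Nr4a and every Egr factor. Nr4a3 reaches 0.65 in WT replicate 1, while Egr2 stays between −0.14 and 0.11 in all samples.

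The 6 members did not vary as 1 block. The SD of the log2 values over the 8 samples was 0.405 for Nr4a1, 0.378 for Nr4a3 and 0.284 for Nr4a2, above the median of all genes tested (0.221). It was 0.225 for Egr3, 0.204 for Egr1 and 0.0905 for Egr2, and 8.33% of genes tested had an SD below that of Egr2. The likeness of 2 members was measured by the root mean square difference of their centred log2 values over the 8 samples, with 0 for identical profiles. Egr1 and Egr2 were closest (0.126), followed by Nr4a2 and Egr3 (0.178) and by Nr4a3 and Egr3 (0.225), and Nr4a3 and Egr1 were farthest apart (0.430). Egr3 was thus closer to Nr4a2 than to Egr1 (0.240) or Egr2 (0.229), while its distances to Nr4a3 and Egr2 were nearly equal. The measure takes in the size of the variation as well as its shape, and it describes 8 samples that share their libraries.

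Among all genes compared, the 5 most like the mean Nr4a profile by the same measure were Armc9 (0.0687), Enkd1 (0.100), Ctla4 (0.101), Fosl2 (0.102) and Tulp3 (0.107), against a median of 0.416 over 11740 genes. Ctla4 encodes an inhibitory receptor of T cells and Fosl2 an AP-1 subunit. The 5 most like the mean Egr profile were Ifi35 (0.0395), Ddx55 (0.0462), Eif4g3 (0.0467), Inpp5d (0.0482) and Trappc1 (0.0502), against a median of 0.246 over 16486 genes.

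WT replicates 1 and 3, the samples in which Nr4a3 and Egr3 were highest, also had the highest summed level of the 3 Treg markers and the lowest of the 6 myeloid markers. The Treg sum was 149168 and 147487 normalized counts in these samples, 115467 in K187R replicate 1, and 79694 to 94202 in the other 5. Most of it came from Il2ra (68677 to 132086), which activated T cells of other kinds also express. Foxp3, the defining factor of Treg cells, ranged from 6121 to 17297, with a K187R minus WT log2 fold change of −0.34, and Ikzf2, the remaining marker, from 1569 to 4553, with one of 0.34. The myeloid sum, with all 6 markers detected and most of it from the lysozyme gene Lyz2 (17025 to 57778), was 20857 and 21252 in WT replicates 1 and 3 and 35984 to 65886 in the other 6 samples. The summed B cell (262 to 1253), CD8 (387 to 1141), NK (21.5 to 67.3) and stromal (35.6 to 309.5) markers were far lower. In these bulk samples fewer cells of a type and less RNA per cell cannot be told apart, and the part of these cell types in the Nr4a and Egr values was not tested.

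Relatives and protein partners of the members were listed beside them. Of the co-repressors Nab1 and Nab2, the relative Egr4 and the heterodimer partners Rxra and Rxrb, all 5 were tested, 4 had a log2 fold change below 0 and none passed the test, with a median of −0.026. Nab2, a co-repressor that Egr factors induce and that binds them, was at 3287 ± 396 in WT and 2904 ± 168 in K187R samples (log2 fold change −0.17, SE 0.0974). Egr4 was low (46.0 ± 18.0 and 39.6 ± 10.4 normalized counts, −0.17), and Rxra was at 1403 ± 225 and 1497 ± 178 (0.10).

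Among the factors that act on the promoters of immediate early genes (serum response factor and its partners, CREB and its coactivators, MEF2 and NFAT factors), all 17 were listed, with Mrtfa found under its older symbol Mkl1, and 16 had a mean of at least 10. Of these, 11 had a log2 fold change above 0 and 5 below, none had an unadjusted p below 0.05, and the median was 0.049. Nfatc2, a calcium-dependent activator, was at 9254 ± 1033 and 10442 ± 777 (log2 fold change 0.18, SE 0.0947). Mef2d, a calcium-responsive activator of Nr4a1, was at 11164 ± 902 and 9940 ± 1117 (−0.17, SE 0.0938), Atf1 of the CREB family was at 5746 ± 575 and 5339 ± 258 (−0.10), and the scarce Mef2c was at 201 ± 146 and 293 ± 70.4 (0.76, SE 0.428).

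Of 30 other immediate early and activation genes, 21 had a log2 fold change below 0 and 9 above, with a median of −0.069, and none passed the adjusted threshold in limma, while 1 of 30 had an unadjusted p below 0.05 with a higher K187R value (2.75% of all genes tested) and 2 of 30 with a lower one (1.64% of all genes). Fosl2 was at 10608 ± 1849 in WT and 7415 ± 240 in K187R samples, with separated groups (log2 fold change −0.50, SE 0.115, limma adjusted p = 0.921). Such separation with lower K187R values was found for 0.989% of all genes tested. DESeq2 gave Fosl2 an adjusted p of 0.0499, just under the threshold. Dusp5, a phosphatase that inactivates ERK, was at 3296 ± 584 and 2511 ± 200 (−0.38, SE 0.124). Ier5, an immediate early gene, was separated in the other direction, as were 1.47% of all genes tested, at 7091 ± 396 and 8222 ± 542 (0.21, SE 0.0732), and Zfp36, which encodes an mRNA decay factor, was at 7990.4 ± 1067 and 9164 ± 1441 (0.19, SE 0.128).

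The 20 genes linked to Egr or Nr4a factors in unresponsive or exhausted T cells went both ways, 13 above and 7 below 0, with a median of 0.11. None passed the adjusted threshold in limma, and 3 genes in each direction had an unadjusted p below 0.05 (Tox, Tox2 and Crtam higher, Ctla4, Cblb and Tnfrsf9 lower), against 2.75% of all genes tested with a higher and 1.64% with a lower K187R value. Ctla4 was at 15679 ± 2378 in WT and 10925 ± 622 in K187R samples (log2 fold change −0.51, SE 0.107, limma adjusted p = 0.921), and Cblb, a ubiquitin ligase that restrains T cell activation, was at 17633 ± 900.1 and 14402 ± 583 (−0.29, SE 0.0651, the same adjusted p). Both were separated between the groups and called by DESeq2 (adjusted p = 0.0179 and 0.0317). Tnfrsf9, an activation-induced costimulatory receptor, was the other separated gene of this list (6273 ± 554 and 4642 ± 570). Of all genes tested, 0.989% were separated with lower K187R values. DESeq2 called 0.0859% of the genes to which it gave an adjusted p as lower. Tox and Tox2, nuclear factors of exhausted T cells, had higher K187R means: 3563 ± 824 and 4857 ± 517 for Tox (0.47, SE 0.149) and 1219 ± 292 and 1787 ± 346 for Tox2 (0.56, SE 0.192), with overlapping groups. Tnfrsf9 and Crtam were named after their values were seen.

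Heat shock genes, which respond to handling of cells, were below 0 for 7 of 7, with a median of −0.10 and no unadjusted p below 0.05. Hspe1, a mitochondrial co-chaperone, was at 7767 ± 1537 and 6418 ± 515 (−0.25, SE 0.145), and Dnajb1 was at 5188 ± 328 and 4830.5 ± 188 (−0.10, SE 0.0697). Their part in the Nr4a values was not tested.

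**Figure D4:**
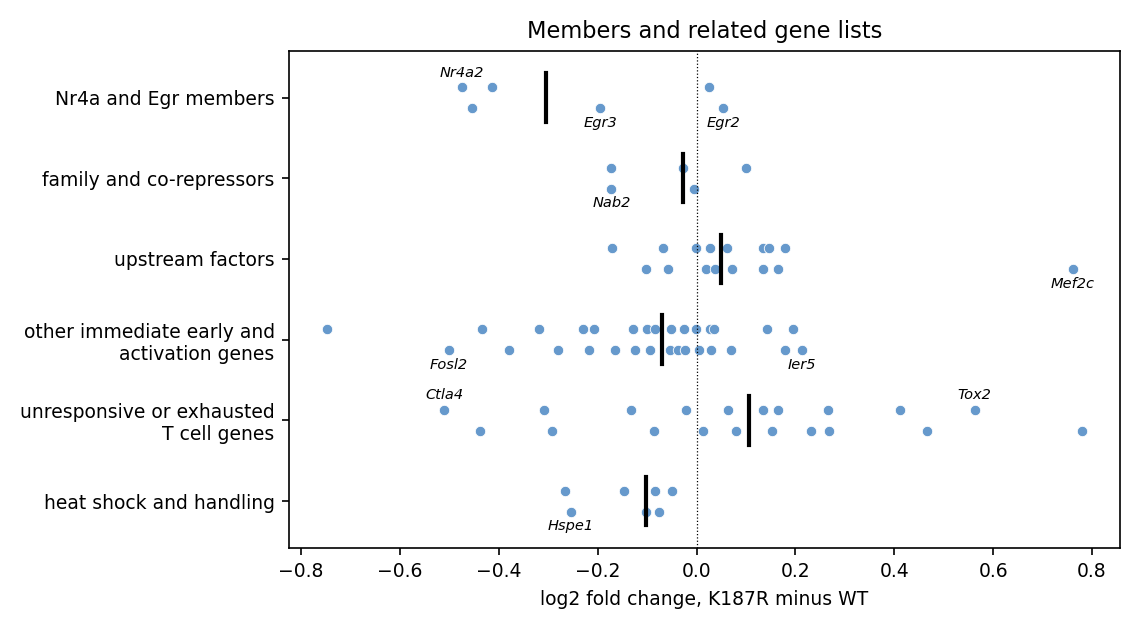
Log2 fold change, K187R minus WT, of the members and of the genes of 5 related lists. Each point is 1 gene and the black bar the median of its list, which is −0.30 for the 6 members and −0.10 to 0.11 for the other lists.

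**Figure D5:**
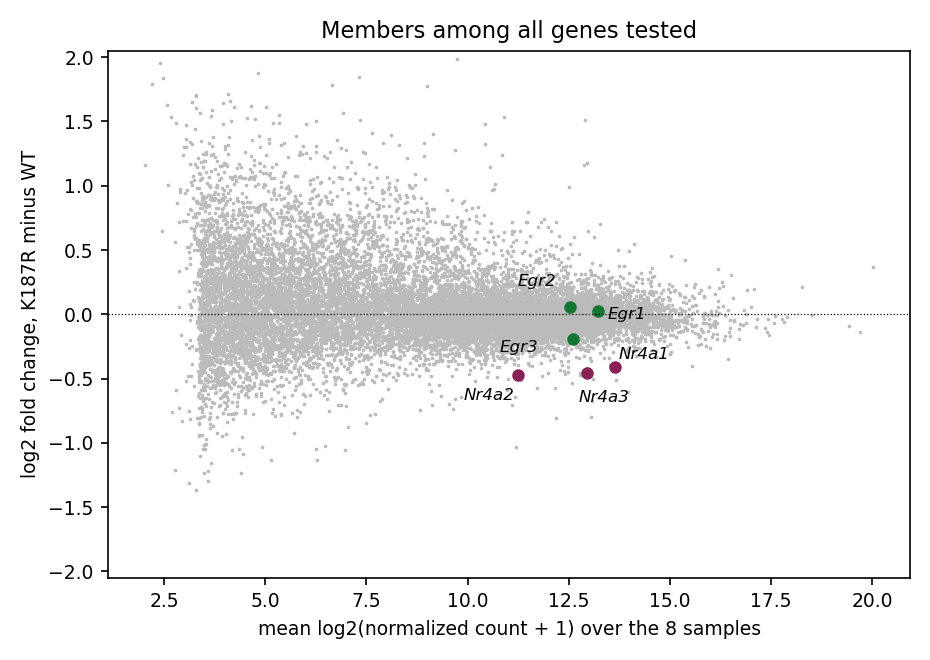
Log2 fold change, K187R minus WT, against the mean log2(normalized count + 1) over the 8 samples for the genes tested, with the Nr4a factors in purple and the Egr factors in green. The 3 Nr4a factors lie at −0.47 to −0.41, and 2 genes lie outside the vertical axis.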

How the data were processed

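RNA seq of 4 WT and 4 K187R samples was compared. The authors trimmed reads with Cutadapt, aligned them with HiSat2 to GRCm38 and counted them with featureCounts on GENCODE M15, versions not given in the sources used here. They tested differential expression with DESeq2, whose model is not stated. The paper names a poly-A kit (KAPA) and the labels another. Each deposited value is a signal, the reads of a gene divided by the DESeq2 size factor of the sample (0.842 to 1.18). All of them (100%) gave whole reads within 0.01 of a read, and 3 reads correspond to 2.54 to 3.56 normalized counts. The deposited values are normalized, so limma (lmFit, eBayes with a trend) was set as the main fit, though recovered reads also allow count models. It was fitted to log2(normalized count + 1), keeping 16982 genes whose mean reached 10, with Benjamini-Hochberg adjustment at 0.05. On the recovered reads edgeR called 0 genes and DESeq2 27.

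The members and gene lists were chosen with earlier results of these data known. Outside the members, genes named were those called in limma or, where none was, the 2 smallest p-values per direction in each of the 5 related lists, the 5 genes most like each mean profile among those with an SD at least 0.5 times that of the profile, and Il17a. A further gene of this rule is not reported here. Xist, Foxp3, Il2ra, Ikzf2, Lyz2, Tnfrsf9 and Crtam fall outside the rule and were named after their values were seen. Elk1 and Sema7a also fall outside it and were named because a sample was flagged as an outlier. RPKM used exon lengths of GENCODE M21. Motifs were counted in RefSeq windows. Sample sets came from Ward clustering of 16976 genes and were defined after the data were seen. Alternatives were other pseudocounts, filters and scalings, sample weights, a replicate block or the sample set in limma, a replicate block in edgeR, each sample left out, edgeR and DESeq2. Added after the data were seen were DESeq2 with the replicate block, edgeR and DESeq2 with the sample set, and sets left out. The fits were tested on simulated data. Figures were drawn with matplotlib 3.10.9. Tables were handled in Python 3.11.15 with pandas 2.3.3 and numpy 2.4.6, and exact tests used scipy 1.17.1. Models ran in R 4.3.3 with DESeq2 1.42.0, edgeR 4.0.16 and limma 3.58.1.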

Additional observations from a re-analysis of the deposited data

Results flagged for a closer look

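No member was an outlier within its group. Among 184 groups of 4 samples, from 92 genes, 3 had a sample far from the others, where chance gives about 9.2 (Dixon's criterion at 95%). They were all in K187R replicate 3: Elk1, a partner of serum response factor on the Egr1 promoter, at 2142 normalized counts against 1922 to 1954 in the other K187R samples, Mef2d at 11596 against 9246 to 9626, and Sema7a, a membrane-anchored semaphorin, at 5753 against 4995 to 5116.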

How the results depend on the processing

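With 4 samples per group, limma and edgeR called 0 genes (746 and 729 at an unadjusted p under 0.05). The number of genes called was 3 with sample weights, 1 with the sample set in limma and 1 in edgeR, 27 with DESeq2, 140 with DESeq2 and the sample set, 4 without the samples of set 3, and 0 to 4 with 1 sample left out (4 without WT replicate 4). Nr4a2 passed the threshold with DESeq2 (−0.48, adjusted p = 0.0170) and with DESeq2 and the sample set (−0.43, adjusted p = 0.00843), and in no other fit without the block. Over 26 alternatives the log2 fold change ranged from −0.63 to −0.29 for Nr4a1, −0.65 to −0.31 for Nr4a3, 0.0036 to 0.10 for Egr2 and −0.32 to −0.096 for Egr3, all in 1 direction. Egr1 turned to −0.087 without the samples of set 2, and with 1 sample left out it ranged from −0.094 to 0.12, below 0 without WT replicate 1 or 2 or K187R replicate 3 or 4. The cause was not tested.

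The labels number both groups 1 to 4, but same-numbered samples did not all deviate together (correlations 0.59, 0.66, −0.092 and 0.63), and 6 of 8 samples correlated best with their own number. The numbers were therefore not taken to pair the samples. Xist was at 10.15 normalized counts in WT replicate 3 and 13564 in K187R replicate 3. These samples thus differ in sex and do not share an animal, though a replicate block joins them. For the other numbers, whether same-numbered samples share an animal or culture is not given. With the sample number as a replicate block, limma and edgeR called 0 genes (2046 and 1930 at an unadjusted p under 0.05). DESeq2 with the block, added after the data were seen, called 175, including Nr4a1 (−0.41, adjusted p = 0.00779), Nr4a2 (−0.47, adjusted p = 0.00331) and Nr4a3 (−0.45, adjusted p = 0.0440).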
